A study of Mus musculus with 18 samples.

Results

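The nuclear genes described here encode 43 proteins that act on mitochondrial RNA after, or around, the step that ELAC2 catalyses: they transcribe mitochondrial DNA, modify and stabilise its transcripts, degrade them, modify mitochondrial tRNAs, or translate the mRNAs on mitochondrial ribosomes. They were chosen by function, as named genes, from the 55469 genes of each table of normalised counts. The rule itself used no measured value, but the members were chosen with earlier results of these data known. All 43 were found in every table, and all 43 passed the filter on low values (a mean of at least 10 normalised counts over the 6 libraries of a table) in all 4 comparisons.

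Total RNA was sequenced from male mice on a background labelled C56NL/6N, taken from 2 of the prostate lobes, the ventral and the lateral. In the KO mice, a Cre recombinase driven by the probasin promoter (Pb-Cre), which acts in prostate epithelium, removed the eighth exon of Elac2, so stromal, vascular and immune cells of the lobes keep the gene. The A537T mice carry a threonine in place of an alanine of ELAC2 in every tissue, introduced by CRISPR editing and homozygous, and the WT mice (ELAC2+/+) are age- and littermate-matched. Each of the 3 genotypes was sampled at 10 weeks and at 30 weeks, with 3 libraries in each of 6 groups and no agent given, and the lines crossed to the TRAMP tumour model are not analysed here.

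Mitochondrial DNA is transcribed from both strands into long polycistronic RNAs in which tRNAs separate most of the mRNAs and rRNAs. Excision of the tRNAs releases the other transcripts: mitochondrial RNase P (TRMT10C, HSD17B10 and PRORP) cuts before each tRNA, ELAC2, the RNase Z of nucleus and mitochondria, cuts after it, and TRNT1 then adds the terminal CCA. The released RNAs are polyadenylated by MTPAP, held by the LRPPRC and SLIRP complex and by proteins of the FASTK family, or degraded by PNPT1 and SUPV3L1 in RNA granules, while the tRNAs are modified and used by a dedicated set of initiation, elongation and release factors. The comparisons below address whether transcripts for this neighbouring machinery differ when ELAC2 is deleted or altered.

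The libraries of a table held between 7436930 and 10814025 normalised counts in total, of which the 43 factors took 0.0534 to 0.0693%. Markers of the labelled tissue were present throughout: all 12 prostate epithelium genes were detected in every library, at 0.499 to 14.8% of counts. At 10 weeks these 12 genes took 0.499 to 3.88% in KO, 3.71 to 13.4% in WT and 7.92 to 10.4% in A537T libraries, and at 30 weeks 4.86 to 14.3%, 7.6 to 14.8% and 4.52 to 14.8%. The 8 immune cell genes, of which 5 to 8 were detected in a library, summed to 0.00624 to 0.00969% over all libraries at 10 weeks. At 30 weeks they took 0.00462 to 0.00721% in WT, 0.00701 to 0.0163% in KO and 0.0109 to 0.0261% in A537T libraries, so the A537T libraries lay wholly above the WT libraries. RNA of 2 other tissues also differed between libraries, although the seminal vesicles had been dissected away. At 10 weeks, 30 skeletal muscle genes took 4.14 to 13.3% of counts in WT, 0.071 to 2.16% in KO and 1.64 to 4.6% in A537T libraries, with 30 of 30 detected in all but 2 KO libraries, which had 29 and 20. At 30 weeks no library exceeded 0.0761%, with 24 to 30 detected. In turn, 11 seminal vesicle genes took 6.57 to 10.3% in the KO and 0.000837 to 4.64% in the WT libraries at 10 weeks, and at most 0.2% in the A537T libraries, with 6 to 11 of the 11 detected. At 30 weeks they took 8.55, 8.02e-05 and 6.34% in the KO libraries and 7.26, 9.13e-05 and 9.19% in the A537T libraries, against at most 0.000607% in WT, with 4 to 11 detected. In bulk tissue, fewer cells of a type and less RNA per cell cannot be told apart. At 10 weeks the skeletal muscle and seminal vesicle shares did not overlap between KO and WT, so their part in that comparison cannot be told apart from the genotype.

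On a scale of normalised counts per kb of exonic sequence, which allows levels of different genes to be compared, Tufm and Grsf1 were the most abundant of the 43 in every group. Tufm encodes the mitochondrial elongation factor that brings charged tRNAs to the ribosome, and Grsf1 an RNA-binding protein of the RNA granules. In WT prostate at 10 weeks, the level of Tufm was 159 per kb (median of 3 libraries, lowest 136, highest 165) and that of Grsf1 130.0 (129.5 to 199.6), so these neighbours overlapped. Fastk followed at 105 (81.7 to 109.9) and Rexo2, which degrades the shortest RNA fragments, at 78.5 (69.9 to 81.1). The lowest levels were those of Fastkd3 at 10.1 (7.14 to 19) and Tfb1m, which methylates the small-subunit rRNA, at 10.4 (10.3 to 15.8). At 30 weeks the order at the top was Grsf1 at 126 (125 to 139.8), Tufm at 107 (100.2 to 118) and Rexo2 at 91.2 (90.7 to 92.9), and the libraries of these 3 genes did not overlap. Fastkd1 at 9.84 (9.34 to 11.7) and Mtrf1 at 10.3 (8.59 to 11.5) were the lowest at that age, and their libraries overlapped. The length is that of the union of all annotated exons of a gene, so a gene with many isoforms is placed too low on this scale.

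**Figure D1:**
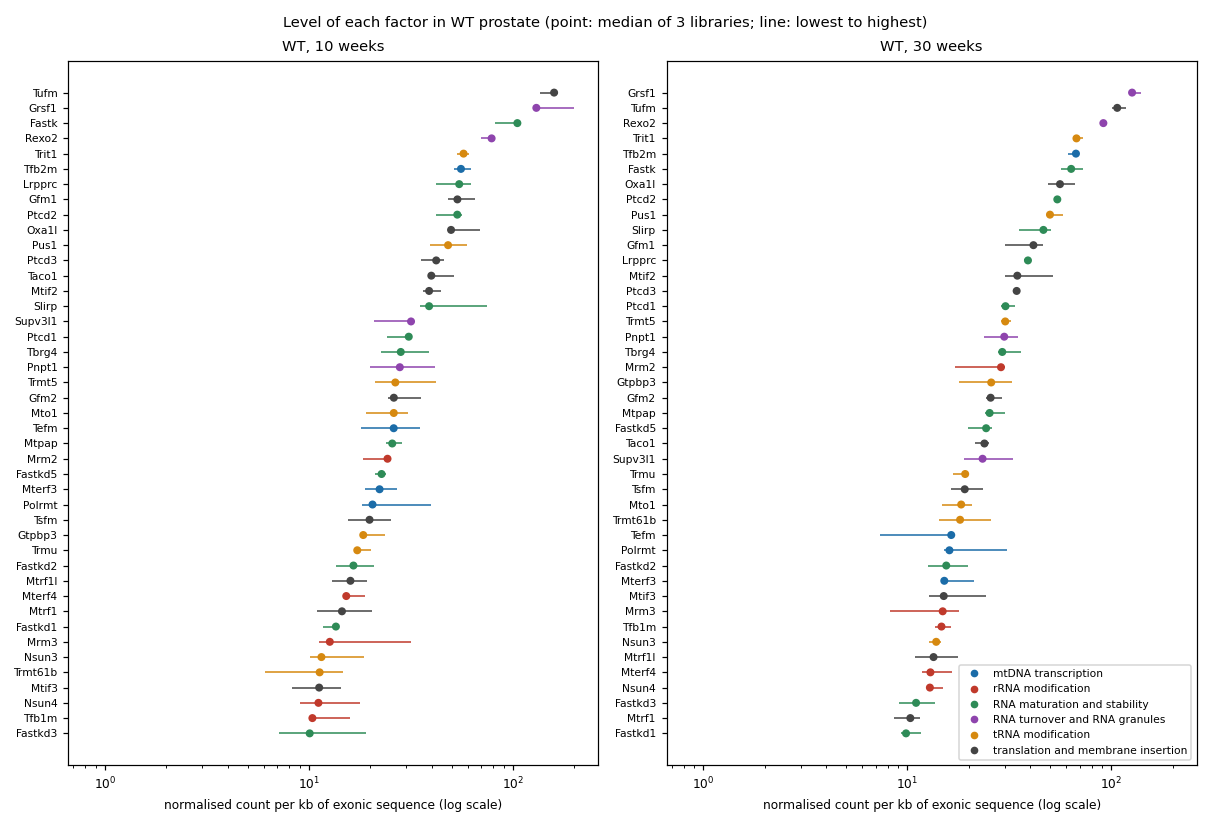
Normalised counts per kb of exonic sequence (log axis) of the 43 factors in WT prostate at 10 weeks (left) and 30 weeks (right), with the median of 3 libraries as a point, the lowest to the highest library as a line, and the role as colour. Tufm, Grsf1, Fastk and Rexo2 lie at the top at 10 weeks and Grsf1, Tufm and Rexo2 at 30 weeks.

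Nuclear genes for mitochondrial proteins are known for promoters that bind the ETS factor GABP and NRF1. Promoter sequences of RefSeq (GRCm38.p6) were matched for 40 of the 43 genes, which have 44 windows because some have more than 1 annotated start. The 250 bases before each start were searched on both strands for the ETS core CTTCCGG and for GCGCANGC, a relaxed form of the NRF1 core. A gene was counted when any of its windows held a match. The ETS core was found in 11 of the 40 genes (27.5%: Polrmt, Tefm, Slirp, Fastk, Fastkd5, Tbrg4, Ptcd2, Grsf1, Nsun3, Trmt5 and Mtif2) and in 7.83% of 27025 genes of all kinds. The NRF1 form was found in 8 of the 40 (20.0%: Polrmt, Fastk, Fastkd3, Supv3l1, Grsf1, Mto1, Gfm2 and Oxa1l) and in 9.38% of all genes. By window, the ETS core was in 25.0% of the 44 and in 6.91% of all 32851, and the NRF1 form in 18.2% and 8.3%. Neither motif contains the other, and a match of letters is a description and not a binding site. Windows of 3 genes are printed 5′ to 3′ on the strand of the gene, with matches to the ETS core in capitals: Slirp (chr12:87443646-87443895, forward strand) with 3 matches and Tbrg4 (chr11:6626068-6626317, reverse strand) with 2, since their values are described below, and Grsf1 (chr5:88676172-88676421, reverse strand) with 1, as an abundant member. The NRF1 match of Grsf1 lies in its other window, which is not printed.
Slirp: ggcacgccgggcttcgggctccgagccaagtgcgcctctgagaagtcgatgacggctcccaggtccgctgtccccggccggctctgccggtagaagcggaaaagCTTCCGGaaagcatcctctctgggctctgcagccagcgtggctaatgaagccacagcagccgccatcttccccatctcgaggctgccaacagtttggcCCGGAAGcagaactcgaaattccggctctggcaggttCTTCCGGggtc
Tbrg4: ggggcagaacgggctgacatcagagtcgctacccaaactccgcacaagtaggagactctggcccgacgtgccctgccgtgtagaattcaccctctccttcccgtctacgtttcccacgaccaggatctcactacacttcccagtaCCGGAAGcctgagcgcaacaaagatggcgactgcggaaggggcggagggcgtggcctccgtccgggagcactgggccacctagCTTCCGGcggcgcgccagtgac
Grsf1: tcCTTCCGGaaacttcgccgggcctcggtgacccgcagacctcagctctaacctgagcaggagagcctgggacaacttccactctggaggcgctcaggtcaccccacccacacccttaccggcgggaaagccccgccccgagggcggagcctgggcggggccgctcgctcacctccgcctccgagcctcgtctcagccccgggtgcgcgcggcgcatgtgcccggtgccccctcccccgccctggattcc

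Elac2 itself was read over the whole gene, so the loss of 1 exon need not change its count. At 10 weeks it held 124, 142 and 166 in WT and 119, 111 and 116 in the mutant for KO mice (log2 fold change -0.31, limma adjusted p = 0.325). In this comparison every KO library was below every WT library, as for 14.3% of all genes. At 30 weeks the values for KO mice were 149.6, 153 and 194 in WT and 98.4, 151 and 122 in the mutant (log2 fold change -0.43, limma adjusted p = 0.478), and the groups overlapped. In A537T mice, where the gene is whole, the log2 fold change of Elac2 was 0.19 at 10 weeks (limma adjusted p = 0.796) and -0.23 at 30 weeks (limma adjusted p = 0.658).

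The enzymes that act on tRNA ends beside ELAC2 did not pass the test in any comparison either. In each, limma called 0% of all tested genes, so this is not particular to them. Hsd17b10, a subunit of mitochondrial RNase P that is also a dehydrogenase, held 235, 323 and 386 in WT and 223, 231 and 173 in the mutant in KO mice at 10 weeks (log2 fold change -0.57, limma adjusted p = 0.234), with no overlap. Of all genes, 14.3% lay wholly below WT in that comparison. The log2 fold change of Hsd17b10 was -0.23 in A537T mice at 10 weeks, -0.30 in KO and -0.23 in A537T mice at 30 weeks. Trnt1, which adds the terminal CCA, held 200.2, 248 and 194 in WT and 182, 176 and 171 in the mutant in KO mice at 30 weeks and 193, 239.7 and 188 in WT and 178, 169.7 and 146 in the mutant in A537T mice at 30 weeks. Neither pair of groups overlapped, with log2 fold changes of -0.27 and -0.33 (limma adjusted p = 0.509 and 0.391), and both share the WT libraries. The shares of all genes wholly below WT were 8.41 and 9.4%. For Elac1, which encodes another RNase Z outside mitochondria, Trmt10c, and 1110008L16Rik, the mouse gene for PRORP, the log2 fold changes lay between -0.22 and 0.19 over the 4 comparisons.

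In KO mice at 10 weeks, 31 of the 43 factors were lower and 12 higher than in WT mice, with a median log2 fold change of -0.16, beside -0.01 over the 15089 genes tested, of which 50.6% were lower. None of the 43 passed limma at an adjusted p under 0.05, as did none of all genes (0%). At an unadjusted p under 0.05, 7 factors were lower, against a background of 11.5% of genes, and 0 were higher, against 7.97%. The 3 KO libraries lay wholly below the 3 WT libraries for 14 factors (32.6%), where 14.3% of all genes did so, and wholly above them for 1 (2.33%), where 11.7% of genes did so. On whole counts recovered from this table, DESeq2 called 1 of the 43, Fastk, among 3.53% of genes called lower. With edgeR, none of the 43 or of all genes was called. Scaling all libraries to the same total moved the median of all genes to 0.20 and that of the factors to 0.04, with 20 of 43 lower, so the median of the factors minus that of all genes was -0.16 under both scalings. Leaving out single libraries gave medians of -0.14 to -0.26, beside 0.00 to -0.02 over all genes. The values furthest from -0.16 were -0.25 without the WT library with the most seminal vesicle RNA and -0.26 without the KO library with the most skeletal muscle RNA.

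**Figure D2:**
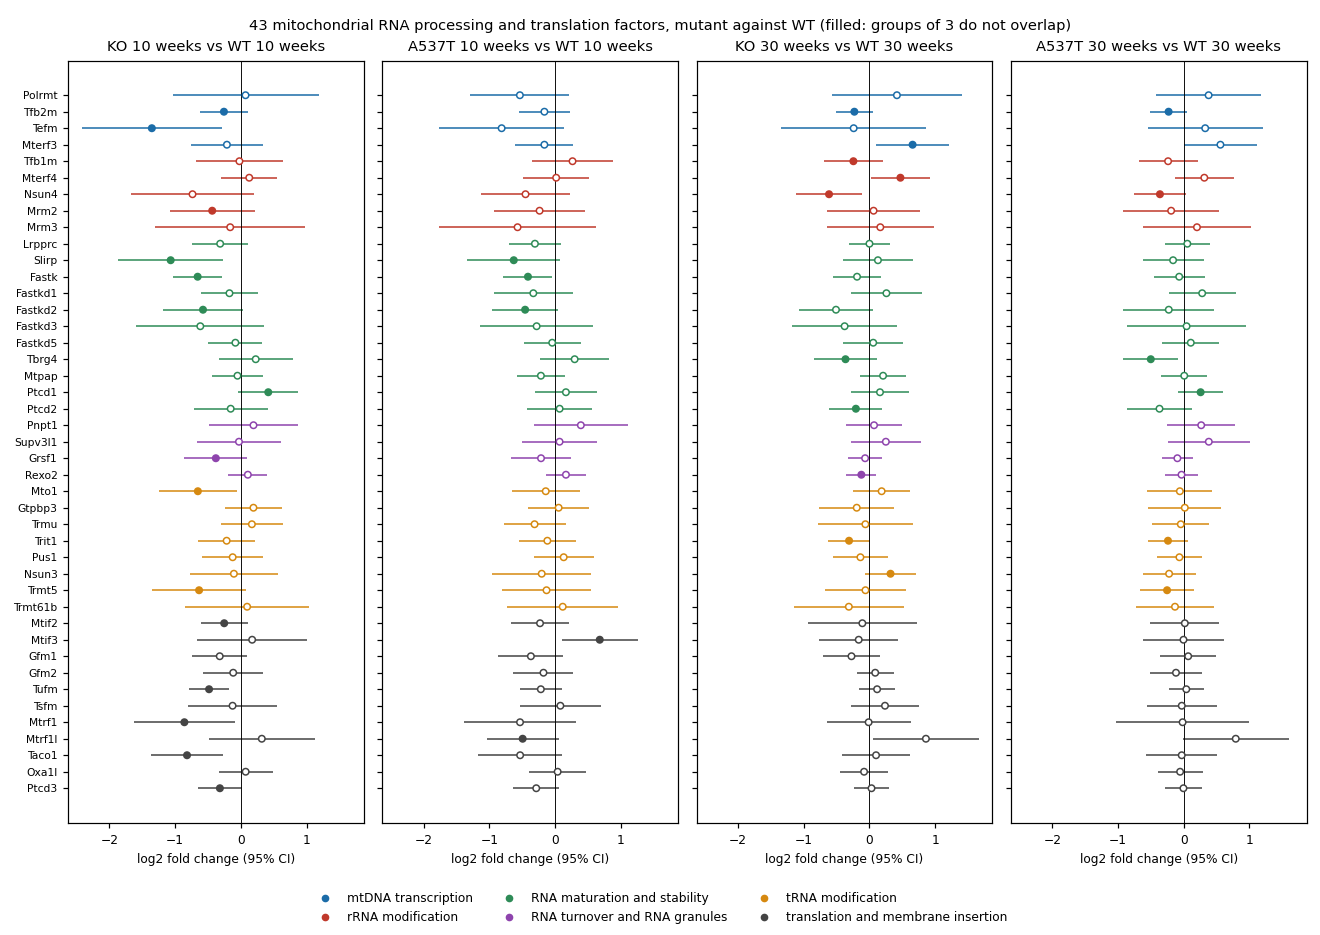
Log2 fold change of each of the 43 factors with its 95% confidence interval, mutant against WT of the same age, in 4 panels, coloured by role, with filled points where the 3 mutant libraries lay wholly above or below the 3 WT libraries. Filled points below zero are most numerous in KO mice at 10 weeks, with 14, against 4 in A537T mice at 10 weeks and 7 and 5 in KO and A537T mice at 30 weeks. Over all genes the shares wholly below WT were 14.3, 6.34, 8.41 and 9.4% in the same order.

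Among the factors of transcription, Tefm (ENSMUSG00000046909.9, chromosome 11, 80136678 to 80142175 on the reverse strand of GRCm38), the elongation factor of the mitochondrial RNA polymerase, had the lowest fold change of all 43. For Tefm, the WT libraries held 28.4, 40.8 and 55.1 normalised counts and the KO libraries 19.8, 21.1 and 8. All KO libraries were below the lowest WT library, with a log2 fold change of -1.35 (SE 0.45, 95% confidence interval -2.42 to -0.28, limma adjusted p = 0.198). Its log2 fold change was -0.81 in A537T mice at 10 weeks, -0.24 in KO mice at 30 weeks and 0.33 in A537T mice at 30 weeks. Of the other 3, Tfb2m, which opens the promoter for the polymerase, was lower without overlap at -0.26. Its lowest WT and highest KO library lay close, at 143.8 and 142.9. Mterf3 was at -0.21, and Polrmt, the polymerase itself, at 0.07, with groups that overlapped.

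Of the 11 factors of RNA maturation and stability, 9 were lower and 2 higher, with a median log2 fold change of -0.17. Fastk (ENSMUSG00000028959.14, chromosome 5, 24438440 to 24445287 on the reverse strand), the founding member of the FASTK family of mitochondrial RNA-binding proteins, had the smallest p of the 43. For Fastk, the WT libraries held 357, 459 and 480.5 normalised counts and the KO libraries 301, 266 and 250.4, or 432 ± 65.9 against 272 ± 25.8 (SD, n = 3). The groups did not overlap, with a log2 fold change of -0.66 (SE 0.16, 95% confidence interval -1.03 to -0.28, limma adjusted p = 0.183). The highest WT value was that of the library with the most skeletal muscle RNA, and without it the log2 fold change was -0.57. With DESeq2 on recovered counts its log2 fold change was -0.65 (DESeq2 adjusted p = 0.0312). Its limma log2 fold change was -0.41 in A537T mice at 10 weeks, -0.19 in KO mice at 30 weeks and -0.07 in A537T mice at 30 weeks. For Slirp (ENSMUSG00000021040.15, chromosome 12, 87443896 to 87452206 on the forward strand), the small RNA-binding partner of LRPPRC, the WT libraries held 120.3, 109 and 233 normalised counts and the KO libraries 57.6, 91.3 and 61.7. The WT values were uneven, with the same library highest, and the fit gave a log2 fold change of -1.07 (SE 0.33, 95% confidence interval -1.86 to -0.27, limma adjusted p = 0.189). Without that WT library it was -0.73, and with a skeletal muscle score as a covariate -0.34. Slirp's log2 fold change was -0.63 in A537T mice at 10 weeks, 0.13 in KO mice at 30 weeks and -0.16 in A537T mice at 30 weeks, and that of Lrpprc was -0.31 in KO mice at 10 weeks, with overlap. Fastkd2 was lower without overlap at -0.58. Ptcd1 (ENSMUSG00000029624.10, chromosome 5, 145147514 to 145167108 on the reverse strand), a pentatricopeptide protein that binds mitochondrial leucine tRNAs, was the 1 factor higher without overlap, as the WT libraries held 104, 101 and 78.5 normalised counts and the KO libraries 121, 111 and 146, which gave a log2 fold change of 0.42 (SE 0.19, 95% confidence interval -0.04 to 0.87, limma adjusted p = 0.279). Its log2 fold change was 0.16 in A537T mice at 10 weeks, 0.16 in KO mice at 30 weeks and 0.26 in A537T mice at 30 weeks.

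Of the 11 factors of translation and membrane insertion, 8 were lower and 3 higher, with a median of -0.25, and 5 were lower without overlap. For Tufm (ENSMUSG00000073838.10, chromosome 7, 126487361 to 126490731 on the forward strand), the WT libraries held 289.6, 352 and 338 normalised counts and the KO libraries 227, 226 and 245, or 326 ± 32.5 against 232 ± 10.5 (SD, n = 3). The KO libraries lay close together below all WT libraries, with a log2 fold change of -0.48 (SE 0.13, 95% confidence interval -0.79 to -0.17, limma adjusted p = 0.183). Its log2 fold change was -0.22 in A537T mice at 10 weeks, 0.12 in KO mice at 30 weeks and 0.04 in A537T mice at 30 weeks. For Taco1 (ENSMUSG00000001983.7, chromosome 11, 106066061 to 106073612 on the forward strand), the translational activator of the first cytochrome c oxidase subunit, the WT libraries held 52.8, 55 and 71.4 normalised counts and the KO libraries 32.6, 37.5 and 29.7. All KO libraries were below the WT range, with a log2 fold change of -0.82 (SE 0.23, 95% confidence interval -1.36 to -0.27, limma adjusted p = 0.183), and the fold change was -0.53 in A537T mice at 10 weeks, 0.10 in KO mice at 30 weeks and -0.03 in A537T mice at 30 weeks. For Mtrf1 (ENSMUSG00000022022.3, chromosome 14, 79397772 to 79423587 on the forward strand), a release factor of mitochondrial translation, the WT libraries held 26.4, 35 and 49 normalised counts and the KO libraries 18.9, 23.4 and 16. Here too the KO range lay below that of WT, with a log2 fold change of -0.86 (SE 0.33, 95% confidence interval -1.63 to -0.09, limma adjusted p = 0.231), and the fold change was -0.53 in A537T mice at 10 weeks, -0.01 in KO mice at 30 weeks and -0.02 in A537T mice at 30 weeks. The related release factor Mtrf1l (ENSMUSG00000019774.8, chromosome 10, 5811887 to 5823910 on the reverse strand) was on the other side, as the WT libraries held 62.6, 42.5 and 52 normalised counts and the KO libraries 46.4, 56.2 and 104. Only 1 KO library stood above the WT libraries, with a log2 fold change of 0.32 (SE 0.34, 95% confidence interval -0.48 to 1.12, limma adjusted p = 0.605), and without that KO library the value was -0.02. It was 0.18 without the lowest WT and 0.56 without the lowest KO library. The other 2 without overlap were Mtif2, the initiation factor that places the first tRNA, at -0.25, and Ptcd3, a protein of the small ribosomal subunit, at -0.32. The lowest WT library of Mtif2 held 139.9 and its highest KO library 136.6.

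In the remaining groups, 5 of 8 tRNA modification genes, 4 of 5 rRNA modification genes and 2 of 4 turnover and granule genes were lower. Mto1, which with GTPBP3 modifies the wobble base of several tRNAs, was lower without overlap at -0.65 (limma adjusted p = 0.234), while Gtpbp3 was at 0.19 with overlap. Trmt5, which methylates the base beside the anticodon, Mrm2, a methyltransferase of the large-subunit rRNA, and Grsf1 were also lower without overlap, at -0.63, -0.44 and -0.38. The lowest WT and the highest KO library lay close, at 45 and 43.8 for Trmt5, 26.4 and 25.8 for Mrm2, and 393.3 and 392.3 for Grsf1. The highest WT value of Grsf1, 605.9, was that of the library with the most skeletal muscle RNA.

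The WT library with the most skeletal muscle RNA held the highest WT value for 22 of the 43 factors (51.2%), where 37.9% of all tested genes had their highest WT value in that library. The WT library with the most seminal vesicle RNA (4.64%) held it for 6 (14%), against 37.2% of genes. With a skeletal muscle score as a covariate the median of the factors in KO mice was -0.09, beside 0.00 over all genes, and 26 were lower. In that fit Tufm was at -0.50, Fastk at -0.58, Taco1 at -0.49, Tefm at -0.42, Mtrf1 at -0.30 and Ptcd1 at 0.08. With a seminal vesicle score instead, the median of the factors was -0.13, beside -0.02, and 28 were lower. Slirp was then at -0.50, Mtrf1 at -0.52 and Ptcd1 at 0.21. In both fits limma called none of the 43, as it called 0 of all 15089 genes, so this count is not particular to the factors. The shares of both tissues did not overlap between KO and WT, so these fits cannot tell tissue apart from genotype. Without the WT library that held the most seminal vesicle RNA, limma called 2886 genes, and of the factors Fastk (adjusted p = 0.0221) and Tufm (adjusted p = 0.0303), both lower, where 9.57% of genes were called lower.

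**Figure D3:**
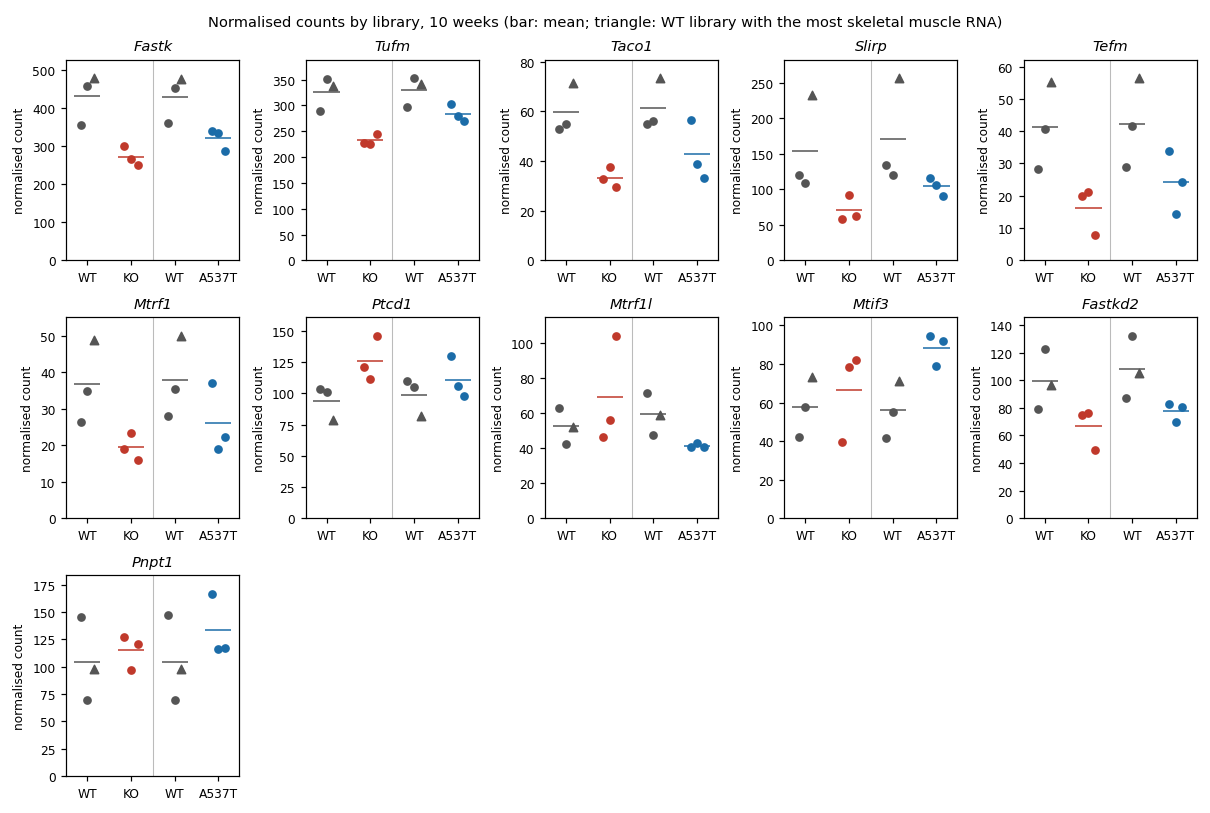
Normalised counts by library at 10 weeks of the 11 factors named at that age, with WT and KO libraries on the left of each panel and, on the scale of their own table, WT and A537T libraries on the right, bars for the means of 3, and a triangle for the WT library with the most skeletal muscle RNA. For Fastk, Slirp, Taco1, Tefm, Mtrf1 and Mtif3 this library lies highest of the WT libraries in both tables, and the KO libraries of Fastk, Tufm, Taco1, Slirp, Tefm and Mtrf1 all lie below the WT libraries.

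In A537T mice at 10 weeks, which were set against the same WT libraries, 29 factors were lower and 14 higher, with a median log2 fold change of -0.20, beside 0.01 over 15131 genes, of which 48.5% were lower. None of the 43 and none of all genes (0%) passed limma at an adjusted p under 0.05. At an unadjusted p under 0.05, 1 factor was higher (background 2.76%) and 1 lower (background 3.67%). The groups did not overlap for 4 lower factors (9.3%, background 6.34%) and 1 higher (2.33%, background 5.58%). With a skeletal muscle score as a covariate the median of the factors was 0.00 and 21 of 43 were lower, beside 0.01 over all genes. Scaled to the same total, the median was -0.07, with 26 lower, beside 0.15 over all genes. Leaving out single libraries gave medians of -0.12 to -0.29, beside 0.00 to 0.02 over all genes, with -0.12 without the WT library with the most skeletal muscle RNA.

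The 1 higher factor without overlap was Mtif3 (ENSMUSG00000016510.11, chromosome 5, 146951573 to 146963800 on the reverse strand), an initiation factor of mitochondrial translation. For Mtif3, the WT libraries held 41.4, 55.3 and 71.4 normalised counts and the A537T libraries 94.7, 79 and 91.8, or 56 ± 15 against 88.5 ± 8.37 (SD, n = 3). All A537T libraries were above the highest WT library, with a log2 fold change of 0.68 (SE 0.25, 95% confidence interval 0.10 to 1.26, limma adjusted p = 0.746). With a skeletal muscle score as a covariate it was 1.00, and the value was 0.17 in KO mice at 10 weeks, -0.16 in KO mice at 30 weeks and 0.00 in A537T mice at 30 weeks. Pnpt1 (ENSMUSG00000020464.15, chromosome 11, 29130744 to 29161828 on the forward strand), the exoribonuclease of the mitochondrial degradosome, had the next highest value, though the groups overlapped, as the WT libraries held 147, 69.2 and 98 normalised counts and the A537T libraries 167, 116 and 117. This gave a log2 fold change of 0.39 (SE 0.30, 95% confidence interval -0.32 to 1.11, limma adjusted p = 0.78). Without the highest or the lowest WT library it was 0.67 or 0.13, without the highest A537T library it was 0.22, and the value was 0.19 in KO mice at 10 weeks, 0.07 in KO mice at 30 weeks and 0.27 in A537T mice at 30 weeks.

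The 4 lower factors without overlap were Fastk, Fastkd2, Slirp and Mtrf1l. For Fastk, the WT libraries held 360.4, 454 and 477 normalised counts and the A537T libraries 342, 335 and 288, with a log2 fold change of -0.41 (SE 0.16, 95% confidence interval -0.79 to -0.04, limma adjusted p = 0.746). With the skeletal muscle covariate it was -0.15. For Fastkd2 (ENSMUSG00000025962.15, chromosome 1, 63730614 to 63754655 on the forward strand), a FASTK family member that binds the large-subunit rRNA, the WT libraries held 87, 132 and 106 normalised counts and the A537T libraries 83, 69.5 and 80.7. The highest A537T library was just below the lowest WT library, with a log2 fold change of -0.46 (SE 0.21, 95% confidence interval -0.95 to 0.04, limma adjusted p = 0.746). Without the highest WT library it was -0.30, and the value was -0.58 in KO mice at 10 weeks, -0.51 in KO mice at 30 weeks and -0.23 in A537T mice at 30 weeks. For Slirp, the WT libraries held 135, 120.2 and 257 normalised counts and the A537T libraries 116, 106 and 90.8, and the WT library with the most skeletal muscle RNA again stood apart. The fit gave a log2 fold change of -0.63 (SE 0.30, 95% confidence interval -1.34 to 0.08, limma adjusted p = 0.746), which was -0.29 without that library and -0.07 with the covariate. For Mtrf1l, the WT libraries held 71.5, 47.6 and 58.6 normalised counts and the A537T libraries 40.4, 42.8 and 40.4, with A537T libraries that lay close together and a log2 fold change of -0.49 (SE 0.23, 95% confidence interval -1.04 to 0.05, limma adjusted p = 0.746). Tefm had the lowest fold change, though the groups overlapped, as the WT libraries held 29, 41.5 and 56.5 normalised counts and the A537T libraries 34, 14.3 and 24.2, with a log2 fold change of -0.81 (SE 0.41, 95% confidence interval -1.77 to 0.14, limma adjusted p = 0.749). It was -0.49 without the lowest A537T library, and with a skeletal muscle score as a covariate the log2 fold change was -0.35. By role, 4 of 4 transcription genes, 3 of 5 rRNA modification, 8 of 11 RNA maturation, 1 of 4 turnover, 5 of 8 tRNA modification and 8 of 11 translation genes were lower.

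**Figure D4:**
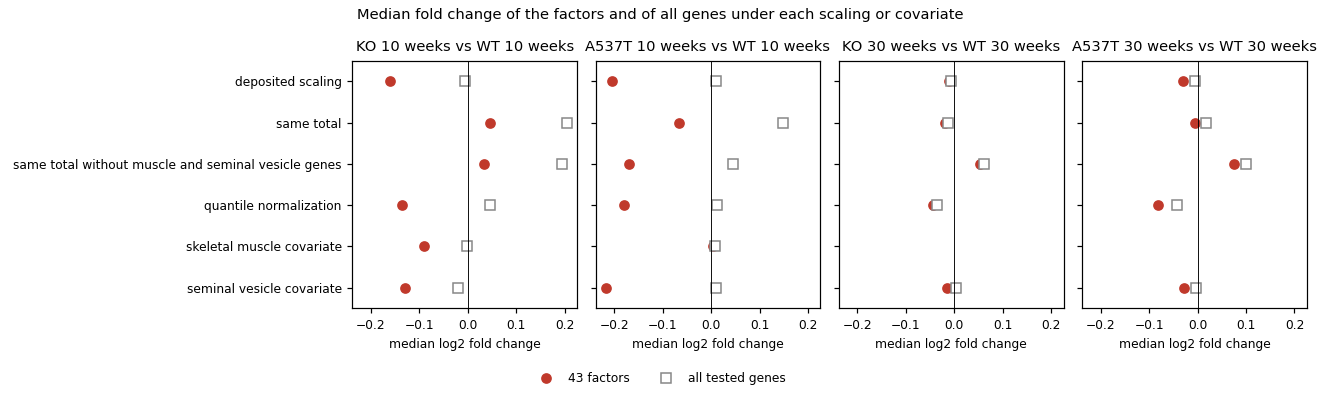
Median log2 fold change of the 43 factors (circles) and of all tested genes (open squares) in the 4 comparisons, with the deposited scaling, 3 other scalings and fits with a skeletal muscle (10 weeks only) or seminal vesicle score as covariate. At 10 weeks the factors lie to the left of all genes, with a difference of medians of -0.16 in KO mice and -0.21 in A537T mice with the deposited scaling, while in A537T mice the skeletal muscle covariate brings both medians to within 0.01 of zero.

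In KO mice at 30 weeks, 22 factors were lower and 21 higher, with a median log2 fold change of -0.01, the same as over the 14729 genes tested. Leaving out single libraries gave medians of -0.06 to 0.06. None of the 43 and none of all genes (0%) passed limma at an adjusted p under 0.05. At an unadjusted p under 0.05, 3 factors were higher (background 5.56%) and 1 lower (background 5.41%). The groups did not overlap for 7 lower factors (16.3%, background 8.41%) and for 3 higher ones (6.98%, background 7.92%). Without the KO library that held almost no seminal vesicle RNA, limma called 944 of 14732 genes and none of the 43.

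The lowest p belonged to Nsun4 (ENSMUSG00000028706.14, chromosome 4, 116032842 to 116053876 on the reverse strand), the methyltransferase that acts on the small-subunit rRNA in mitochondria and works with MTERF4. For Nsun4, the WT libraries held 77.2, 74.9 and 89.1 normalised counts and the KO libraries 40.6, 57.3 and 60.5, or 80.4 ± 7.63 against 52.8 ± 10.7 (SD, n = 3). The groups did not overlap, with a log2 fold change of -0.61 (SE 0.21, 95% confidence interval -1.11 to -0.12, limma adjusted p = 0.407), and the value was -0.73 in KO mice at 10 weeks, -0.45 in A537T mice at 10 weeks and -0.36 in A537T mice at 30 weeks. Its partner Mterf4 (ENSMUSG00000026273.13, chromosome 1, 93299211 to 93305915 on the reverse strand) was on the opposite side, as the WT libraries held 86.8, 62.2 and 68.3 normalised counts and the KO libraries 92.2, 94.7 and 114. The KO libraries were all above the WT libraries, with a log2 fold change of 0.47 (SE 0.19, 95% confidence interval 0.03 to 0.92, limma adjusted p = 0.438), and the value was 0.13 in KO mice at 10 weeks, 0.02 in A537T mice at 10 weeks and 0.31 in A537T mice at 30 weeks. Mterf3 (ENSMUSG00000021519.11, chromosome 13, 66906968 to 66933088 on the reverse strand), of the same protein family and known as a repressor of mitochondrial transcription, was also higher without overlap, as the WT libraries held 71.6, 104 and 74.3 normalised counts and the KO libraries 107, 120.4 and 169.8. This gave a log2 fold change of 0.66 (SE 0.23, 95% confidence interval 0.10 to 1.21, limma adjusted p = 0.419), and the value was -0.21 in KO mice at 10 weeks, -0.16 in A537T mice at 10 weeks and 0.56 in A537T mice at 30 weeks. The third higher factor without overlap was Nsun3, which methylates the wobble base of the methionine tRNA, at 0.32.

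For Mtrf1l, the WT libraries held 57.9, 43.8 and 35.6 normalised counts and the KO libraries 73.8, 57.3 and 131, and 1 KO library fell within the WT range. It had the highest fold change of the 43, with a log2 fold change of 0.86 (SE 0.34, 95% confidence interval 0.05 to 1.67, limma adjusted p = 0.438), and this was 0.52 without the highest KO library and 0.41 with a seminal vesicle score as covariate. The 2 KO libraries with seminal vesicle RNA held the higher values. For Trit1 (ENSMUSG00000028653.16, chromosome 4, 123016597 to 123054949 on the forward strand), which isopentenylates tRNAs, the WT libraries held 152, 139 and 141 normalised counts and the KO libraries 107, 126 and 115. The KO values were all the lower ones, with a log2 fold change of -0.31 (SE 0.13, 95% confidence interval -0.62 to 0.00, limma adjusted p = 0.457). With the seminal vesicle covariate it was -0.20, and the value was -0.22 in KO mice at 10 weeks, -0.12 in A537T mice at 10 weeks and -0.24 in A537T mice at 30 weeks. For Fastkd2, the WT libraries held 116, 91 and 74.3 normalised counts and the KO libraries 82.4, 59.5 and 54.7, with overlap and a log2 fold change of -0.51 (SE 0.24, 95% confidence interval -1.08 to 0.06, limma adjusted p = 0.484). The other factors lower without overlap were Tfb2m (-0.23), Tfb1m (-0.24), Tbrg4 (-0.36), Ptcd2 (-0.21) and Rexo2 (-0.12), each as a log2 fold change. The lowest WT and the highest KO library lay close for Tfb1m (49.5 and 49.2), Ptcd2 (91.1 and 90.3) and Tbrg4 (102.5 and 100.9). By role, 2 of 4 transcription, 2 of 5 rRNA modification, 5 of 11 RNA maturation, 2 of 4 turnover, 6 of 8 tRNA modification and 5 of 11 translation genes were lower.

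In A537T mice at 30 weeks, compared with the same WT libraries, 25 factors were lower and 18 higher, with a median log2 fold change of -0.03, beside -0.01 over 14789 genes. Leaving out single libraries gave medians of -0.04 to 0.01. None of the 43 and none of all genes (0%) passed limma at an adjusted p under 0.05. At an unadjusted p under 0.05, 1 factor was higher (background 7.35%) and 1 lower (background 6.28%). There was no overlap for 5 lower factors (11.6%, background 9.4%) and 1 higher (2.33%, background 9.18%). Scaled to the same total after leaving out the skeletal muscle and seminal vesicle genes, 13 of 43 were lower and the median was 0.07, beside 0.10 over all genes. Without the A537T library that held almost no seminal vesicle RNA, limma called 1224 of 14801 genes and none of the 43. Immune cell RNA was higher in all 3 A537T than in all 3 WT libraries here, and its part in these values was not tested.

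The lowest p was that of Tbrg4 (ENSMUSG00000000384.15, chromosome 11, 6615598 to 6626067 on the reverse strand), also called FASTKD4, a FASTK family member that stabilises a subset of mitochondrial mRNAs. For Tbrg4, the WT libraries held 113, 108 and 140.5 normalised counts and the A537T libraries 94.4, 72.3 and 87.6, or 120.5 ± 17.6 against 84.8 ± 11.3 (SD, n = 3). The A537T values were all the lower ones, with a log2 fold change of -0.50 (SE 0.18, 95% confidence interval -0.92 to -0.08, limma adjusted p = 0.317), and the value was 0.23 in KO mice at 10 weeks, 0.30 in A537T mice at 10 weeks and -0.36 in KO mice at 30 weeks. For Nsun4, the WT libraries held 69.8, 68.8 and 81.2 normalised counts and the A537T libraries 58.3, 56.9 and 54.8, with A537T libraries that lay close together below the WT libraries and a log2 fold change of -0.36 (SE 0.17, 95% confidence interval -0.75 to 0.03, limma adjusted p = 0.391). For Tfb2m (ENSMUSG00000026492.11, chromosome 1, 179528055 to 179546267 on the reverse strand), the WT libraries held 186, 185 and 169 normalised counts and the A537T libraries 148, 153 and 159, without overlap and with a log2 fold change of -0.23 (SE 0.12, 95% confidence interval -0.51 to 0.05, limma adjusted p = 0.425). Its value was -0.26 in KO mice at 10 weeks, -0.16 in A537T mice at 10 weeks and -0.23 in KO mice at 30 weeks. For Trit1, the WT libraries held 151, 138 and 139.5 normalised counts and the A537T libraries 114, 128 and 120.5, without overlap and with a log2 fold change of -0.24 (SE 0.13, 95% confidence interval -0.54 to 0.06, limma adjusted p = 0.445). Scaled to the same total without the skeletal muscle and seminal vesicle genes, Tfb2m was at -0.12 and Trit1 at -0.13. Trmt5 was the fifth lower factor without overlap, at -0.25, and Ptcd1 the higher one, at 0.26.

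The highest fold changes were those of Mtrf1l and Mterf3, both with overlapping groups. For Mtrf1l, the WT libraries held 61.8, 45.9 and 38.6 normalised counts and the A537T libraries 131, 54.9 and 81.1, with a log2 fold change of 0.79 (SE 0.34, 95% confidence interval -0.01 to 1.60, limma adjusted p = 0.369), and 0.47 without the highest A537T library. For Mterf3, the WT libraries held 69.8, 101 and 72.2 normalised counts and the A537T libraries 116, 93.5 and 152, with a log2 fold change of 0.56 (SE 0.24, 95% confidence interval 0.00 to 1.12, limma adjusted p = 0.366). The 2 A537T libraries with seminal vesicle RNA held the higher values of both genes, and with a seminal vesicle score as covariate the fold changes were 0.27 and 0.27. Ptcd2 (ENSMUSG00000021650.7, chromosome 13, 99319647 to 99344705 on the reverse strand), a pentatricopeptide protein needed for the mature cytochrome b mRNA, had 1 library above the WT libraries and 2 below, as the WT libraries held 92.2, 92.9 and 91.1 normalised counts and the A537T libraries 94.4, 58.8 and 64.6. This gave a log2 fold change of -0.37 (SE 0.21, 95% confidence interval -0.86 to 0.12, limma adjusted p = 0.462). It was -0.57 without the highest and -0.23 without the lowest A537T library, -0.60 with the seminal vesicle covariate, and the value was -0.15 in KO mice at 10 weeks, 0.07 in A537T mice at 10 weeks and -0.21 in KO mice at 30 weeks. By role, 1 of 4 transcription, 3 of 5 rRNA modification, 5 of 11 RNA maturation, 2 of 4 turnover, 7 of 8 tRNA modification and 7 of 11 translation genes were lower.

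**Figure D5:**
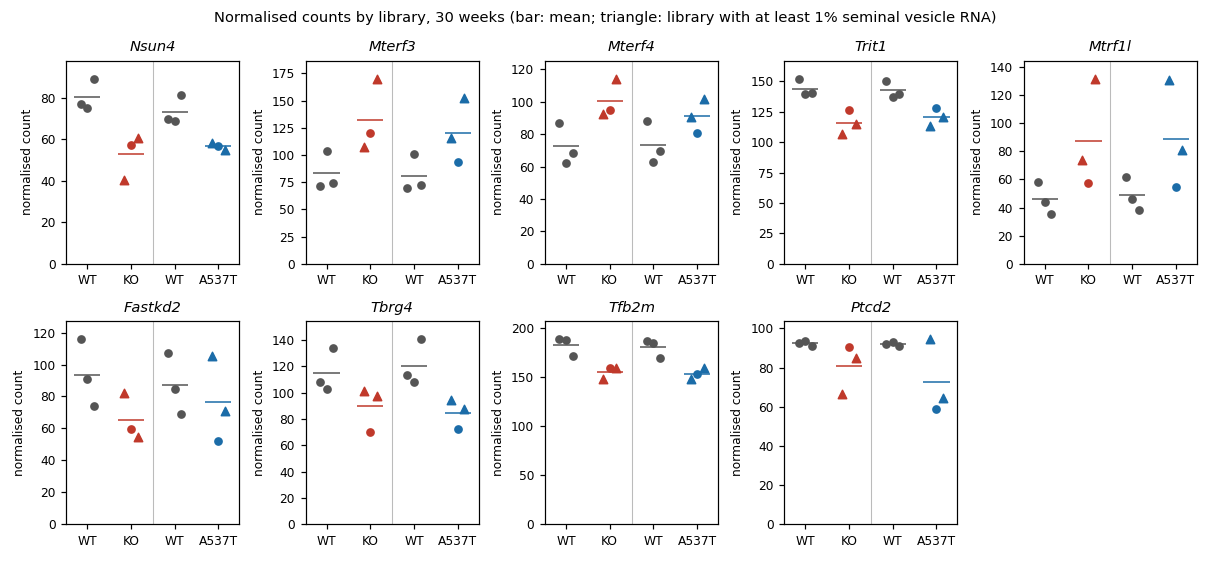
Normalised counts by library at 30 weeks of the 9 factors named at that age, with WT and KO libraries on the left of each panel and, on the scale of their own table, WT and A537T libraries on the right, bars for the means of 3, and triangles for libraries with at least 1% seminal vesicle RNA. Nsun4, Trit1, Tbrg4 and Tfb2m lie below the WT libraries in both lines, which share those libraries, and the triangles of Mtrf1l lie highest.

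Because the WT libraries of the 2 ages differ, the effects at 30 and 10 weeks could be tested against each other within a line. In KO mice none of the 43 differed between ages at an adjusted p under 0.05, as none of 14295 genes did (0%), and 5 did at an unadjusted p under 0.05 (11.6%, background 13.1%). The differences of log2 fold changes, 30 minus 10 weeks, were 0.60 (SE 0.17, adjusted p = 0.191) for Tufm, 1.20 (SE 0.40, adjusted p = 0.238) for Slirp, 0.92 (SE 0.32, adjusted p = 0.245) for Taco1, 0.84 (SE 0.31, adjusted p = 0.27) for Mto1 and 0.87 (SE 0.33, adjusted p = 0.275) for Mterf3. In A537T mice none of the 43 passed (0% of genes), and 3 did at an unadjusted p under 0.05 (6.98%, background 13.4%). These were Mtrf1l at 1.29 (SE 0.41, adjusted p = 0.201), Tbrg4 at -0.80 (SE 0.29, adjusted p = 0.243) and Mterf3 at 0.72 (SE 0.30, adjusted p = 0.317). Over all 43, the difference was above zero for 30 factors in KO mice (median 0.26) and for 28 in A537T mice (median 0.15), beside 52.9% (median 0.03) and 49.6% (median 0.00) of all genes. Skeletal muscle RNA was 4.14 to 13.3% of counts in the WT libraries at 10 weeks and at most 0.0761% at 30 weeks, and its part in these differences was not tested.

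A further list held 42 factors of mitochondrial RNA and translation, such as TFAM, assembly factors of the mitochondrial ribosome and amidotransferase subunits that charge glutamine tRNA. It includes Hsd17b10, Trnt1, Trmt10c and the gene for PRORP, which are described above and are counted again here. The list gave 0 genes past limma at an adjusted p under 0.05 in each of the 4 comparisons, as did all tested genes. In KO mice at 10 weeks, 31 of the 41 tested were lower (median log2 fold change -0.20), beside 50.6% of all genes (median -0.01). Only the deposited scaling was used for this list. In A537T mice of that age, 23 of 42 were lower, with a median of -0.03, beside 48.5% of all genes (median 0.01). At 30 weeks, 21 of 41 were lower in KO mice (median -0.05) and 22 of 42 in A537T mice (median -0.03). Over all genes, 50.9 and 50.7% were lower, with medians of -0.01 in both. On the lower side, the groups did not overlap for 4 of 41, 2 of 42, 4 of 41 and 5 of 42 genes in these comparisons, in the order given. The shares over all genes were 14.3, 6.34, 8.41 and 9.4%. On the higher side there was no overlap for 0, 2, 0 and 0 genes, where the shares over all genes were 11.7, 5.58, 7.92 and 9.18%. At an unadjusted p under 0.05, 4, 1, 2 and 1 were lower (background 11.5, 3.67, 5.41 and 6.28%), and 0 were higher in any (background 7.97, 2.76, 5.56 and 7.35%).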

How the data were processed

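The authors trimmed reads with Trim Galore 0.4.1 and cutadapt 1.18, aligned them with STAR 2.7.3a to GRCm38 masked for nuclear mitochondrial copies, quantified genes with stranded Salmon and summed them to genes through tximport. Each deposited signal value is a count normalised with DESeq2 1.26 among the 6 libraries of a table, and is called a normalised count. Between the KO and A537T comparisons, values of a shared WT library did not differ by a constant factor. At 10 weeks, the WT library with the most seminal vesicle RNA held 85.1 and 94.3 for Polrmt in these comparisons. For Fastk it held 357.1 and 360.4. The reason for this was not tested. Columns were tied to groups, not to replicates, because the row means of each table are those of its named result table and the libraries shared at one age are WT. The authors' own fold changes and s-values were not used.

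Within each table, log2(normalised count + 1) of genes with a mean of at least 10 was tested with limma 3.58.1 in R 4.3.3 (eBayes with a mean trend), with Benjamini-Hochberg adjustment over all tested genes and a threshold of 0.05. Differences are on this log2 scale and understate changes of low genes. The fit was tested on simulated data. Whole counts were recovered for the KO table at 10 weeks (100% of values within 0.001 of a whole number, 6569642 to 10231862 per library). They were tested with DESeq2 1.42.0 and edgeR 4.0.16. These counts are estimates of Salmon as whole numbers in that table, and not reads. Ages were compared through the difference of the 2 fits of a line and the sum of their squared errors, a test added after the data were seen, as were the promoter motifs. Summaries and plots were made in Python 3.11.15 (matplotlib 3.10.9, pandas 2.3.3, scipy 1.17.1). Exonic lengths and positions are those of GENCODE on GRCm38.

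The members and lists were chosen with earlier results of these data known. All 43 members were placed by role. Values of every library were printed for members without overlap among the 6 smallest p of a comparison, and for the 2 largest fold changes in each direction, and their fold changes were then given in the other comparisons. Alternatives were another pseudocount, other filters and scalings, no mean trend, tissue scores as covariates, leaving out each library, and the count tests. The 3 libraries of a group are labelled as replicates, and the paper states that its replicates were biological. Each p-value sets a difference against the spread between these libraries.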

Additional observations from a re-analysis of the deposited data

How the results depend on the processing

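No paired analysis was possible because the columns carry no replicate numbers. DESeq2 and edgeR were not run for the other 3 comparisons. There, steps of whole counts could not be told from a size factor near 1 in 1 or 2 columns. In KO mice at 10 weeks limma called 0 of the 43 and 0 of all genes. DESeq2 on recovered counts called 1 of the 43 and 715 genes, and edgeR called 0 of each. Leaving out single libraries gave 0 to 2 of the 43 and 0 to 2886 genes. The 2 were called without the WT library with the most seminal vesicle RNA, and without the KO library with the most skeletal muscle RNA 185 genes were called. In A537T mice at 10 weeks leaving out a library gave up to 50 of 15029 genes. At 30 weeks it gave up to 944 of 14732 genes in KO mice and 1224 of 14801 in A537T mice. In each, 0 of the 43 were called.

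With a minimum mean of 100, where 20 of the 43 are tested, 14, 14, 10 and 11 were lower in KO and A537T mice at 10 weeks and KO and A537T mice at 30 weeks. Scaled to the same total, with or without the skeletal muscle and seminal vesicle genes, 20 of 43 were lower in KO mice at 10 weeks, and the median was 0.0449 with them and 0.0335 without, where the median of all genes moved to 0.20 and 0.19. In A537T mice at 10 weeks the median was -0.067 at the same total and 0.0035 with the skeletal muscle covariate. In A537T mice at 30 weeks, 13 were lower and the median was 0.0749 at the same total without those genes. Of 408 refits of the members named in each comparison, 403 kept direction and side of the threshold and 3, of Fastk and Tufm in KO mice at 10 weeks, passed it. The other 2 turned Mtrf1l in KO mice at 10 weeks, to -0.0182 without the KO library with its highest value (-0.0182 to 0.556 over the left-out libraries) and to -0.128 with the skeletal muscle covariate. In many of these fits limma called 0 of all genes, so the side of the threshold could not change there. Sizes did move, as for Tefm in KO mice at 10 weeks, from -1.35 to -0.42 with the skeletal muscle covariate. The causes were not tested. The lowest members, such as Tefm, held 8 to 56.5 normalised counts a library, where counting error is large.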
